A study of Homo sapiens with 16 samples.

Results

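The 10 genes followed here belong to the transforming growth factor beta (TGF-beta) pathway and were measured in lung cancer cells grown on plastic and in Matrigel. They are the ligands TGFB1, TGFB2 and TGFB3, the receptors TGFBR1 and TGFBR2, the pseudoreceptor BAMBI, the signal carrier SMAD3, the inhibitory SMAD7 and the co-repressors SKI and SKIL. They were chosen by name, out of 19775 genes that the array names singly, and every probe set that the platform annotation gives to only 1 of them was taken. That gave 28 probe sets out of 54613 on the array, controls left out. Of these, 24 had a median ratio of 1 to their reference over the 16 arrays and were tested. The rest are called dim here, a name for their lower median and not for a measured intensity. The gene expression arrays (U133 Plus 2.0 of Affymetrix, which read a transcript with groups of short probes called probe sets) covered 8 established human lung cancer lines: H1437, H1703, H661, H460, H358, H23, A549 and A427. Each line was grown untreated on tissue culture plastic (2D) and on a thin layer of Matrigel under medium with 2% Matrigel (3D). There was 1 array per line and culture, 16 in all, so the 8 lines were the replicates and a difference within 1 line has no replicate check. P-values for culture therefore set a mean difference against the spread of that difference between these lines. The labels used here give no genotype for the lines and call them lung cancer cells.

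TGF-beta ligands are secreted in a latent form and, once freed, bring together TGFBR2 and TGFBR1, a pair of kinase receptors. TGFBR1 then phosphorylates SMAD2 and SMAD3, which enter the nucleus with SMAD4 and bind DNA. The pathway limits itself, since SMAD7 blocks the receptor, SKI and SKIL (also called SnoN) bind SMADs and repress their targets, and BAMBI resembles a receptor without a kinase. SMAD7, SKIL and BAMBI are textbook targets of the pathway. In lung epithelium TGF-beta is known for restraining growth and for driving epithelial to mesenchymal transition.

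The promoters of 3 genes with a single start in the RefSeq table are shown because SKIL and TGFB1 held the probe sets that fell in 3D and BAMBI had the widest span of line means. Each run is the 250 bases before the start on the gene's strand (RefSeq, GRCh38.p14), and capitals mark the SMAD half-element CAGAC or its reverse complement GTCTG. SKIL lies on the plus strand at chr3:170357465-170357714, BAMBI on the plus strand at chr10:28677271-28677520 and TGFB1 on the minus strand at chr19:41353923-41354172.
SKIL: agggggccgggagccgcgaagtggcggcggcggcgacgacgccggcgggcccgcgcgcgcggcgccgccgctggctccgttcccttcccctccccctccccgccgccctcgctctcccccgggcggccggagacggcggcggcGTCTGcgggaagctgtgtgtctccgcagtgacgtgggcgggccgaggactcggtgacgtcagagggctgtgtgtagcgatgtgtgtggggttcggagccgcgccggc
BAMBI: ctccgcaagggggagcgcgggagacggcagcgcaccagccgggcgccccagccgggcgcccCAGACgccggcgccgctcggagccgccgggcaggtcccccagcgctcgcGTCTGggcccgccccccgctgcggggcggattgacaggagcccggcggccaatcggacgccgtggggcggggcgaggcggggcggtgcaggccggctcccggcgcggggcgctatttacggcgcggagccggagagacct
TGFB1: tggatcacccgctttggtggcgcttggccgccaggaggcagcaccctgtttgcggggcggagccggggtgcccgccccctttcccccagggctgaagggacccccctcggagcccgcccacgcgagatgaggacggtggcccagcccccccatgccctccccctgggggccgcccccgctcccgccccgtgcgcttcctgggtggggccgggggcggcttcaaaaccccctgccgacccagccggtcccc
In these windows SKIL holds 1 half-element, BAMBI 2 and TGFB1 0. Of 27305 genes, each taken at its first listed start, 37.8% hold at least 1 on either strand, so a match sets no gene apart. The full SMAD palindrome GTCTAGAC, found in 0.176% of these promoters, was in 0 of the windows of the 9 member genes in the table, which has no entry for SKI.

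Values are log2 ratios of each probe set to its own median over the 16 arrays, so they compare arrays and not genes. Differences are 3D minus 2D on this log2 scale, given as mean ± SD over 8 lines. Over 34669 tested probe sets, 2464 (7.11%) differed between the cultures, 924 (2.67%) higher and 1540 (4.44%) lower in 3D (limma with the line as a block, Benjamini-Hochberg adjusted p under 0.05). Probe sets for 18S rRNA, an array control, were lower in 3D in 8 of 8 lines, by a mean of -1.15 ± 1.06 (exact two-sided sign-flip permutation test, p = 0.00781, the smallest that 8 lines allow), from -3.45 in H23 to -0.08 in H1437. Each array was closest to the other array of its line in 16 of 16 cases.

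Of the 24 member probe sets, 1 rose and 2 fell in 3D: SKI 229265_at rose, and SKIL 217591_at and TGFB1 203084_at fell. Against 7.11% of all probe sets, a count of 3 of 24 was not read as a result about these genes as a group. In sign, 17 of the 24 were below 0 and 7 above it, against 17698 and 16971 of the 34669 tested probe sets. The median was -0.12 against -0.01 over all tested probe sets. Probe sets of the same gene are not independent, so these signs were not read as a shift of the group. The 2D and 3D groups overlapped for 24 of 24, as they did for nearly all tested probe sets (0.075% did not overlap). The sign was the same in 8 of 8 lines for 2 of them, SKI 229265_at and SKIL 206675_s_at, against 7.93% of all tested probe sets.

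**Figure D1:**
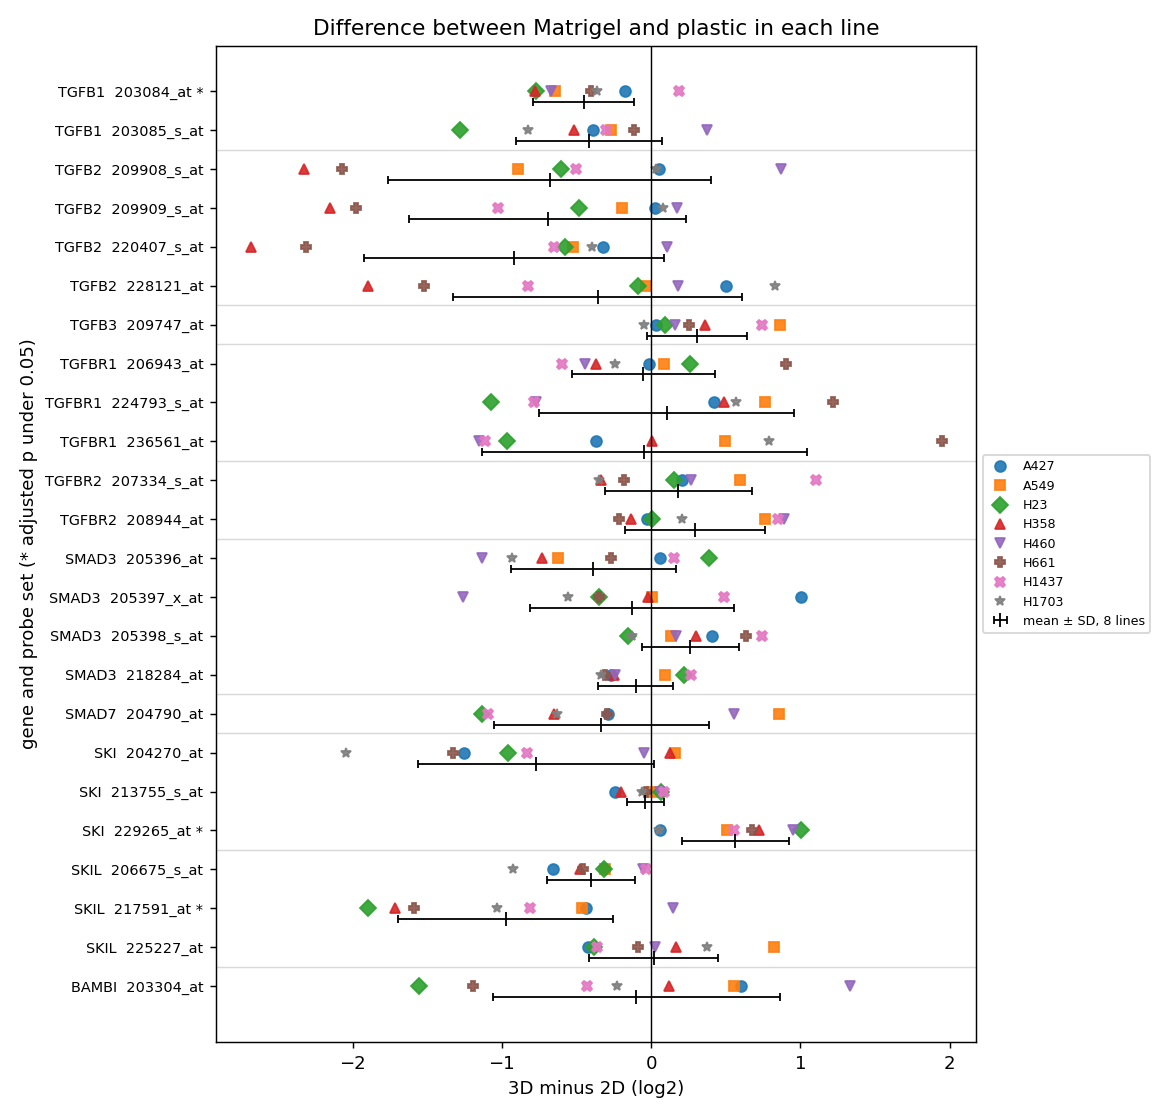
Difference between 3D and 2D (log2, horizontal axis) for the 24 tested probe sets of the 10 genes (vertical axis), 1 symbol per cell line, with the mean and SD over the 8 lines in black under them and an asterisk where the adjusted p is under 0.05. TGFB2 sits near -2 in H358 and H661 on 4 of 4 probe sets, and the probe sets of SKI lie on opposite sides of 0.

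Among the ligands, TGFB1, the isoform most widely expressed in adult tissue, fell in 3D on 1 of its 2 probe sets. On 203084_at its 2D levels ran from -0.32 through a median of 0.29 to 0.83, and its 3D levels from -0.53 through -0.11 to 0.05. The 3D levels were thus packed below most of the 2D ones, with overlap, and 7 of 8 lines were lower. The mean difference was -0.45 ± 0.34 (a 1.37-fold decrease, adjusted p = 0.0460), from -0.78 in H358 to 0.19 in H1437, the only line with a higher value. The second probe set, 203085_s_at, gave -0.42 ± 0.49 and was also lower in 7 of 8 lines, here all but H460, but did not pass (adjusted p = 0.156). With both averaged, TGFB1 was lower in 8 of 8 lines, by -0.43 ± 0.32 (adjusted p = 0.0442 over genes). The call on 203084_at was lost without any 1 of A549, H23, H358, H460, H661 or H1703 (adjusted p from 0.0820 without H661 to 0.110 without H358). It was also lost with dim probe sets included (adjusted p = 0.0778), with quantile normalisation (0.0525) and with the 18S level in the fit (-0.20, adjusted p = 0.686).

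TGFB2, another isoform, did not pass on any of 4 tested probe sets. The means were -0.68 ± 1.08, -0.69 ± 0.93, -0.92 ± 1.01 and -0.36 ± 0.97 (the smallest limma adjusted p was 0.0873, on 220407_s_at). These means came mostly from a pair of lines. On 220407_s_at the 8 differences were -2.68 in H358, -2.31 in H661, -0.65 in H1437, -0.58 in H23, -0.52 in A549, -0.39 in H1703, -0.32 in A427 and 0.11 in H460. H358 and H661 were the 2 lowest on 4 of 4 probe sets, from -2.68 to -1.90 in H358 and from -2.31 to -1.52 in H661, while the other 6 lines stayed between -1.02 and 0.87. As log2 ratios to the median of 220407_s_at, H358 went from 0.71 in 2D to -1.97 in 3D and H661 from 2.16 to -0.15. H460 and A549, which had the highest TGFB2, kept theirs within 1 log2 unit. A427 and H1703 had the lowest line means, and on 220407_s_at lay at -3.02 and -3.36 in 2D and at -3.35 and -3.75 in 3D. Whether such low levels limited their differences was not tested.

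TGFB3, the third isoform, had 0.31 ± 0.33 on its 1 tested probe set, higher in 7 of 8 lines and not called (adjusted p = 0.130). A549 (0.86) and H1437 (0.75) had the highest differences and H1703 (-0.05) the lowest. The ligands thus did not share a sign, with TGFB1 lower and TGFB3 higher in 7 of 8 lines each. The dim probe sets of TGFB2 (220406_at) and TGFB3 (1555540_at) lay under their reference and gave -0.01 and 0.04.

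**Figure D2:**
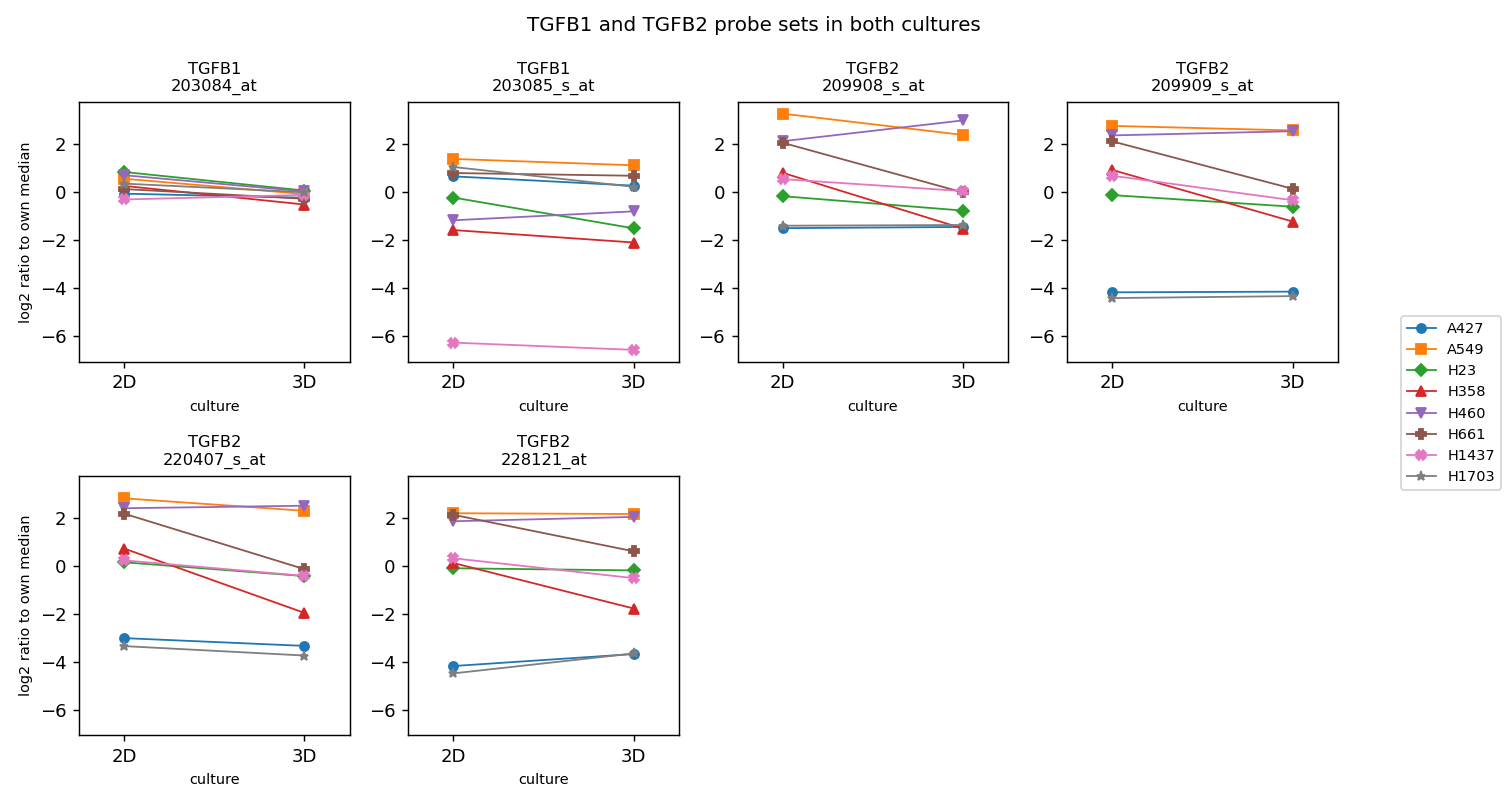
Levels (log2 ratio to the probe set's own median, vertical axis) in 2D and 3D for the probe sets of TGFB1 and TGFB2, with 1 line per cell line joining its 2 arrays. The lines of H358 and H661 drop in the 4 TGFB2 panels, and H1437 lies near -6.4 on TGFB1 203085_s_at but not on 203084_at.

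The receptors showed no called difference between cultures. TGFBR1, the kinase that phosphorylates SMADs, had means of -0.05 ± 0.48, 0.10 ± 0.85 and -0.04 ± 1.09 on 206943_at, 224793_s_at and 236561_at (adjusted p from 0.831 to 0.946). Behind these means near 0 the lines moved in opposite directions. H661 was higher in 3D by 0.91, 1.22 and 1.95 on the 3 probe sets, the highest line on each. H1437 was lower by -0.60, -0.79 and -1.11, and H460 by -0.44, -0.77 and -1.16. The 3 probe sets thus kept 1 sign in those lines, as in A549 (0.08, 0.77 and 0.49). They did not in H23 (0.26, -1.07 and -0.97), H1703 (-0.24, 0.57 and 0.79), A427 (-0.02, 0.42 and -0.37) or H358 (-0.37, 0.49 and 0.01).

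TGFBR2, the receptor that binds the ligand first, gave 0.18 ± 0.49 on 207334_s_at and 0.29 ± 0.47 on 208944_at, each higher in 5 of 8 lines and not called (adjusted p = 0.515 and 0.239). H1437 (1.10 and 0.85), A549 (0.60 and 0.77) and H460 (0.26 and 0.89) were higher on both probe sets, and H358 (-0.33 and -0.13) and H661 (-0.18 and -0.21) lower on both. H358 and H661, the lines with the lowest TGFB2 differences, thus showed much smaller differences of the same sign in TGFBR2. BAMBI, the pseudoreceptor, had -0.10 ± 0.96 on its single probe set, with 4 lines on each side (adjusted p = 0.862). The extremes were H460, higher in 3D by 1.34, and H23, lower by -1.55, with H661 at -1.19.

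SMAD3, the DNA-binding carrier of the signal, was not called on any of 4 probe sets. The means were -0.39 ± 0.55 on 205396_at, -0.13 ± 0.68 on 205397_x_at, 0.26 ± 0.33 on 205398_s_at and -0.10 ± 0.25 on 218284_at (adjusted p from 0.185 to 0.754). H1437 alone was higher on 4 of 4, from 0.16 to 0.74, and H1703 alone lower on 4 of 4, from -0.93 to -0.13. SMAD7, the inhibitory SMAD, had -0.33 ± 0.72 on its 1 probe set and was lower in 6 of 8 lines (adjusted p = 0.364). Its levels ran from -2.22 through a median of 0.29 to 2.73 in 2D and from -2.51 through -0.24 to 2.96 in 3D, so the cultures overlapped almost fully. H23 (-1.13) and H1437 (-1.09) were the lowest differences, and A549 (0.86) and H460 (0.56) were the lines with higher SMAD7 in 3D.

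The co-repressors SKI and SKIL held 2 of the 3 called probe sets, in opposite directions. SKI 229265_at ran from -0.98 through a median of -0.36 to 0.57 in 2D and from -0.47 through 0.16 to 0.98 in 3D. It was higher in 3D in 8 of 8 lines, from 0.05 in H1703 and 0.06 in A427 to 0.95 in H460 and slightly more in H23. The mean was 0.57 ± 0.36 (1.48-fold, adjusted p = 0.0273). SKI 204270_at went the other way, with -0.77 ± 0.79 and no call (adjusted p = 0.0765), lower in 6 of 8 lines and lowest in H1703 at -2.04. SKI 213755_s_at stayed near 0, at -0.04 ± 0.12 (adjusted p = 0.766). The array thus gives no single direction for SKI, whose average over the 3 probe sets was -0.08 ± 0.36 (adjusted p = 0.702 over genes). The call on 229265_at was lost without any 1 of A549, H23, H358, H460 or H661 (adjusted p from 0.0526 without A549 to 0.0716 without H358), with dim probe sets included (adjusted p = 0.0502) and with the 18S level in the fit (0.30, adjusted p = 0.544).

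SKIL 217591_at, by contrast, fell in 3D. Its 2D levels ran from -0.82 through a median of 0.58 to 2.44 and its 3D levels from -1.78 through -0.37 to 1.64. The differences were -1.89 in H23, -1.72 in H358, -1.59 in H661, -1.03 in H1703, -0.81 in H1437, -0.46 in A549, -0.44 in A427 and 0.15 in H460. All lines but H460 were thus lower, and the mean was -0.97 ± 0.72 (a 1.97-fold decrease, adjusted p = 0.0319). SKIL 206675_s_at, for which the platform lists a RefSeq mRNA, gave -0.40 ± 0.30, lower in 8 of 8 lines and just outside the threshold (adjusted p = 0.0514). It passed with the arrays centred on their median (adjusted p = 0.0462), with quantile normalisation (0.0478), with values limited to between -3 and 3 (0.0494) and without H1437 (0.0422), 4 of 16 alternatives. It did not pass in the others, for example with dim probe sets included (0.0834), with the 18S level (0.439) or without H358 (0.109). SKIL 225227_at stood at 0.02 ± 0.43 with 4 lines on each side. Averaged over the 3 probe sets SKIL was lower by -0.45 ± 0.33 in 6 of 8 lines, all but A549 and H460 (adjusted p = 0.0429 over genes).

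The call on SKIL 217591_at was lost without any 1 of H23, H358, H661 or H1703 (adjusted p from 0.0691 without H661 to 0.0798 without H358), with dim probe sets included (adjusted p = 0.0647) and with the 18S level in the fit (-0.65, adjusted p = 0.531). That level was lower in 3D in the same 8 lines, and its part in these results was not tested beyond that fit. With the line left out of the fit as a block, none of the 3 called probe sets passed (adjusted p of 0.996 or more). Of the dim SKIL probe sets, 215889_at lay above its reference in 2D in H358 (0.81) and H1437 (0.90) and lay at -0.88 and -0.65 there in 3D, so its differences in those lines were -1.70 and -1.55. The other 6 lines lay between -0.59 and 0.06. The second, 232379_at, gave 0.02.

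**Figure D3:**
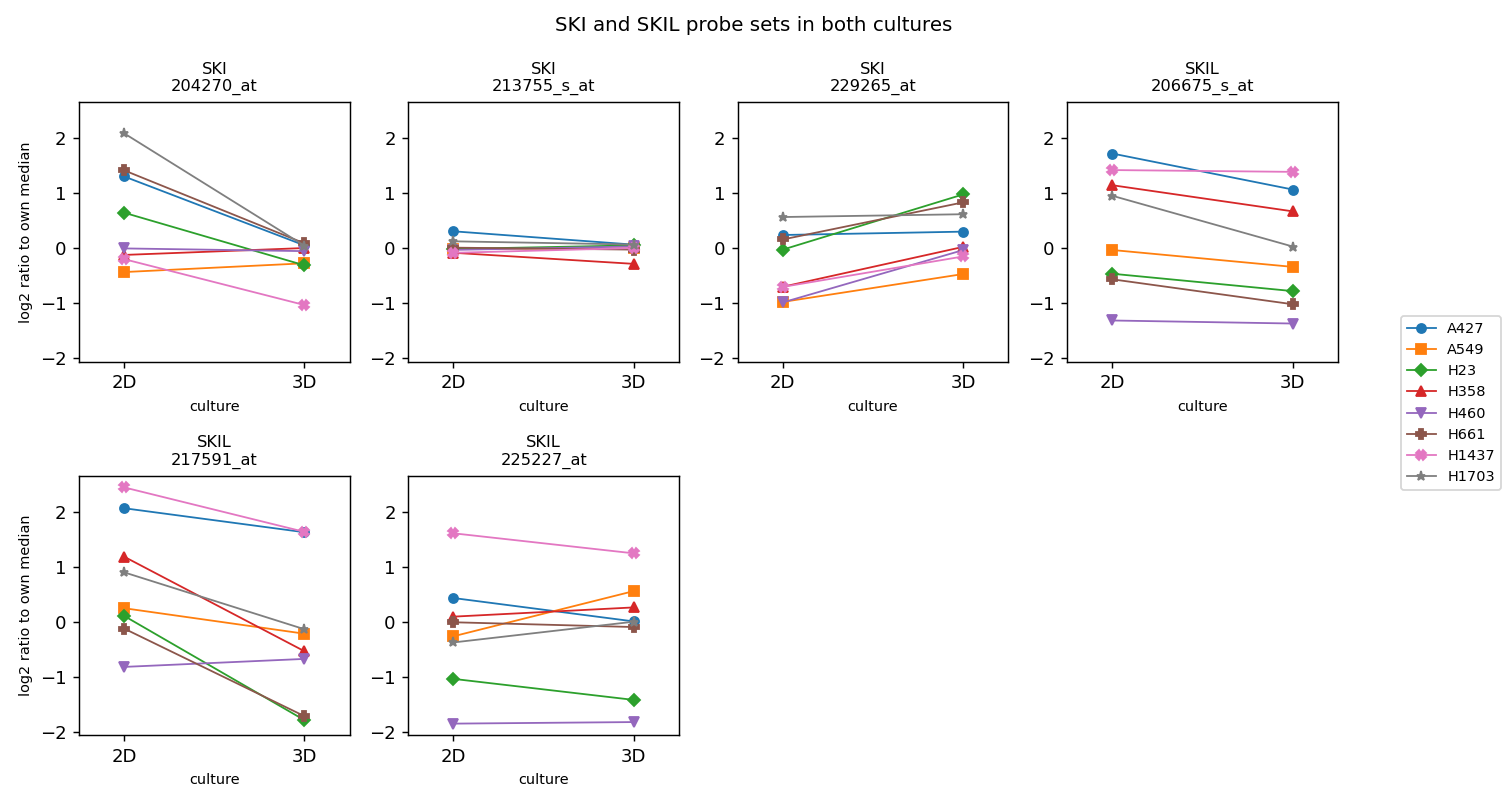
Levels (log2 ratio to the probe set's own median, vertical axis) in 2D and 3D for the 3 tested probe sets each of SKI and SKIL, with 1 line per cell line. SKI 229265_at climbs in 8 of 8 lines while SKI 204270_at drops in 6, and SKIL 217591_at drops in 7 of 8.

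Probe sets of the same gene were set against each other in 23 pairs (exact two-sided sign-flip permutation test of the paired differences, Benjamini-Hochberg over the pairs). No pair passed after adjustment, which with 8 lines needs several pairs at the smallest possible p, and 7 had an unadjusted p under 0.05. The widest gap was that between SKI 204270_at and 229265_at, -1.34 ± 0.66, with 204270_at lower in 8 of 8 lines (exact p = 0.00781, adjusted p = 0.0599). SKIL 217591_at lay below 225227_at by -0.99 ± 0.76 in 7 of 8 lines (exact p = 0.0234, adjusted p = 0.0898). Over the 16 arrays, pairs followed each other closely for TGFB2 (r from 0.90 to 0.99), SMAD3 (0.94 to 0.98) and TGFBR2 (0.92), less so for SKIL (0.66 to 0.88), and weakly for SKI (0.35 to 0.46) and TGFB1 (0.31). For TGFBR1, 224793_s_at and 236561_at followed each other (0.92) and 206943_at did not follow them (0.36 each). These r describe 8 lines in 2 cultures each.

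For most member probe sets the line means spanned more than any single line differed between cultures. The exceptions were TGFB1 203084_at (a span of 0.66 against -0.78 in H358), TGFBR1 224793_s_at (0.99 against 1.22 in H661) and 236561_at (1.88 against 1.95 in H661), and SKI 204270_at (1.68 against -2.04 in H1703). By limma's F test over the 8 lines, in which the 2 cultures of a line stand in as its replicates, 19 of 24 member probe sets differed, against 76.2% of all tested probe sets, so that differing between lines is the rule on this array. The 5 that did not pass were TGFB1 203084_at, TGFBR1 224793_s_at and 236561_at, and SKI 204270_at and 213755_s_at (adjusted p from 0.0722 to 0.457). The widest spans of line means were 9.20 for BAMBI, 8.75 for TGFBR2 208944_at and 7.67 for TGFB1 203085_s_at (log2).

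**Figure D4:**
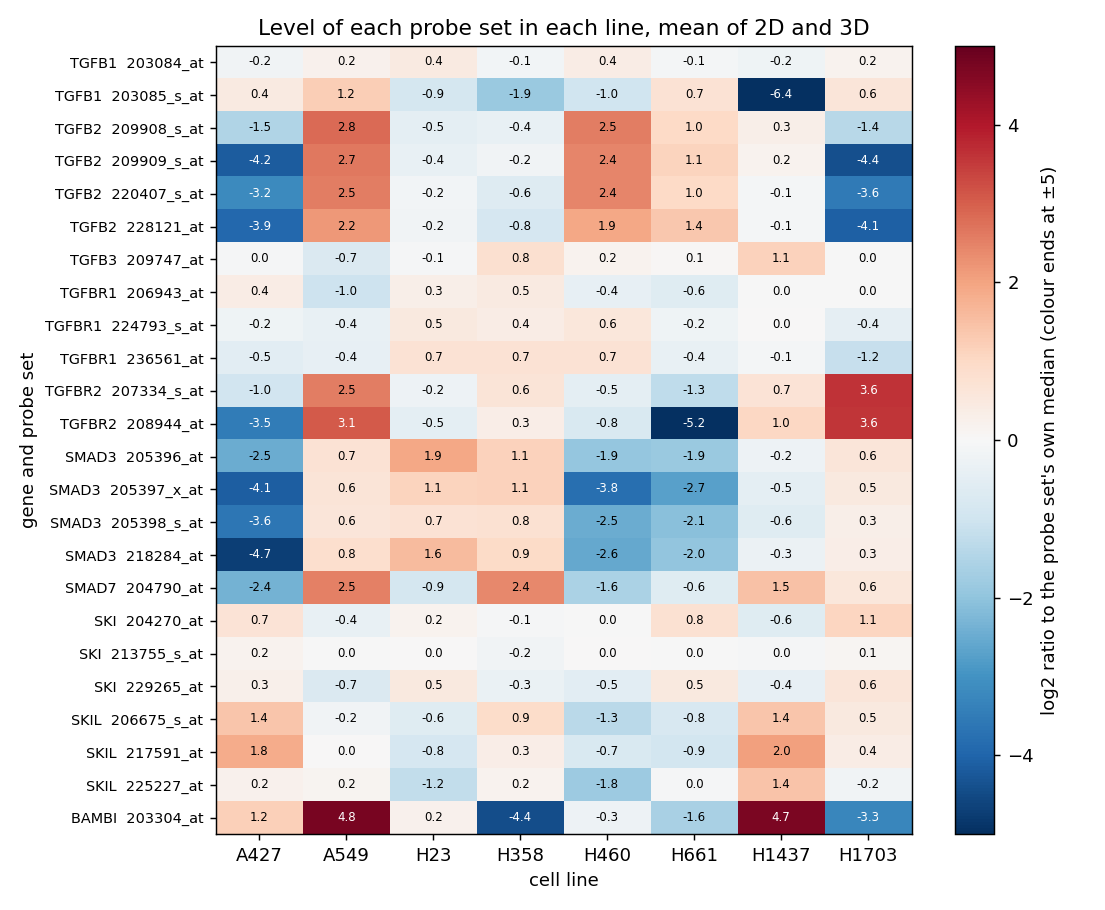
Mean of the 2D and 3D levels (log2 ratio to the probe set's own median, colour and printed value) of the 24 probe sets (rows) in the 8 cell lines (columns). BAMBI is high in A549 and H1437 and low in H358 and H1703, TGFBR2 is low in H661 and A427, and SMAD3 is low in A427, H460 and H661.

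BAMBI stood at 4.48 and 5.04 in A549 and at 4.93 and 4.50 in H1437 (2D and 3D). It stood at -4.50 and -4.38 in H358 and at -3.14 and -3.37 in H1703. Between the highest and the lowest line mean lay a 589-fold difference (F test, adjusted p = 1.79e-06). In rising order the lines were H358, H1703, H661, H460, H23, A427, H1437 and A549, and the ranges of neighbours overlapped from H460 to A427 and between H1437 and A549.

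TGFBR2 was lowest in H661, at -5.06 and -5.27 on 208944_at, followed by A427 at -3.47 and -3.50. It was highest in H1703, at 3.48 and 3.69, followed by A549 at 2.68 and 3.44. The span was 431-fold, and of the 7 steps between neighbours only that from H460 to H23 had overlapping ranges (adjusted p = 8.37e-08). The second probe set, 207334_s_at, put the lines in the same order over a smaller span of 29.4-fold. SMAD3 was lowest in A427, at -4.59 and -4.86 on 218284_at, then in H460 (-2.44 and -2.69) and H661 (-1.84 and -2.15), and highest in H23 (1.46 and 1.68), a span of 78.3-fold (adjusted p = 8.77e-08). The same 3 lines were lowest, in the same order, on 4 of 4 SMAD3 probe sets. H460 came after H661 and A427 for TGFBR2 (-1.21 and -0.32 on 208944_at). A427, H661 and H460 were thus the lowest lines for both the receptor that binds the ligand and the SMAD.

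TGFB2 was high in A549 (2.80 and 2.28 on 220407_s_at) and H460 (2.39 and 2.49) and low in H1703 (-3.36 and -3.75) and A427 (-3.02 and -3.35), a span of 68.4-fold between H1703 and A549 (adjusted p = 3.19e-05). On 209909_s_at the same pairs of lines marked the ends, with a span of 132-fold. The span was 75.7-fold on 228121_at and only 19.7-fold on 209908_s_at, where A427 (-1.49) lay just below H1703 (-1.40). TGFB1 203085_s_at was at -6.29 and -6.59 in H1437, close to the lowest ratio in the table, 0.01, while the other lines lay between -2.11 and 1.37 (adjusted p = 4.77e-07). On 203084_at H1437 lay at -0.32 in 2D, the lowest of the lines there, and at -0.13 in 3D, inside the range of the others, so that the very low value was seen on 1 of 2 probe sets.

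SMAD7 was highest in A549 (2.10 and 2.96), H358 (2.73 and 2.08) and H1437 (2.02 and 0.93) and lowest in A427 (-2.22 and -2.51) and H460 (-1.85 and -1.29), a 29.8-fold span (adjusted p = 1.72e-05). SKIL was highest in H1437 and A427 and lowest in H460 on 206675_s_at, a span of 6.69-fold (adjusted p = 6.39e-06). TGFB3 spanned 3.66-fold from A549 to H1437, TGFBR1 206943_at 2.82-fold from A549 to H358, and SKI 229265_at 2.49-fold from A549 to H1703. These spans were far below those of BAMBI, TGFBR2 and TGFB2.

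**Figure D5:**
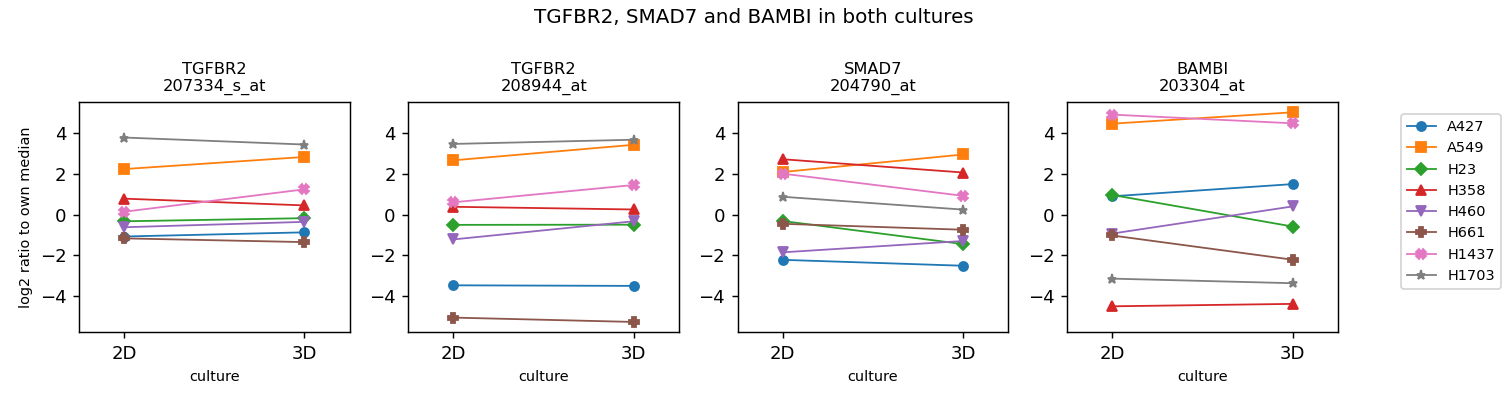
Levels (log2 ratio to the probe set's own median, vertical axis) in 2D and 3D for TGFBR2 (2 probe sets), SMAD7 and BAMBI, with 1 line per cell line. The extreme lines lie far apart in both cultures for TGFBR2 and BAMBI, while some neighbours such as H460 and H23 cross, with TGFBR2 208944_at at -5.06 and -5.27 in H661 and BAMBI between 4.48 and 5.04 in A549 and H1437.

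Markers of the lines were set beside these levels. Of 10 mesenchymal marker probe sets 1 fell in 3D, which against 4.44% of all tested probe sets was not read as a result. Their median was -0.32 against -0.01 over all probe sets, and it was lowest in H358 (-0.78) and H23 (-0.70). Of 6 epithelial marker probe sets 0 were called (limma, 0 with an unadjusted p under 0.05), with a median of 0.23. The part of these markers in the members' values was not tested. CDH1 (E-cadherin, 201131_s_at) was highest in H358 (6.43) and H1437 (5.50) as means of both cultures. The mesenchymal marker VIM (201426_s_at) was lowest in the same lines, at -2.08 and -6.64, the latter at the lowest ratio of all values, 0.01. ZEB1 was also lowest in them on each tested probe set, at -4.41 and -6.30 on 212764_at. KRT7 (209016_s_at) was high in them (7.29 and 7.44) and in A549 (6.99). ESRP1, which had no tested probe set, lay at 8.68 and 8.44 in them on 225846_at and at 6.16 in A427. The markers did not sort all 8 lines in 1 way, though. The mesenchymal CDH2 (N-cadherin) lay above its median in H358 (0.30 and 0.59 on its 2 probe sets), but was lowest in H1437 (-3.75 and -1.48). A427, with CDH1 at -1.34, had high EPCAM (3.51). The epithelial KRT19 (201650_at) was high in H460 (7.57) as well as in H358 (7.91) and H1437 (6.67). H460 had low CDH1 (-4.47 on 201131_s_at) and low EPCAM (-6.19). H358 and H1437 were also the lowest for TGFB1 203085_s_at, at -1.85 and -6.44. H661 and H1703 had the lowest KRT8, at -6.64 (again the lowest ratio of all values) and -6.08. KRT18 was lowest in the same lines (-4.60 and -5.61), so the epithelial keratins were not shared by all 8 lines. Of 9 leukocyte, 6 endothelial and 6 fibroblast markers 5, 3 and 5 had a tested probe set, and 0 of their 18 probe sets were called between cultures (limma, 2 with an unadjusted p under 0.05, both leukocyte markers; CD3E, ITGAM, CSF1R, TYROBP, VWF, CDH5, KDR and FAP had none tested).

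The lines differed in how the 24 probe sets moved with culture. In H661, 18 of 24 were lower in 3D (75.0%, against 55.4% of all tested probe sets in that line), and 9 differed by more than 1 log2 unit (37.5%, against 9.94%). In H23, 16 were lower (66.7% against 46.3%) and 6 passed 1 unit (25% against 7.8%), of which SMAD7, BAMBI, SKIL 217591_at, TGFB1 203085_s_at and TGFBR1 224793_s_at were lower and SKI 229265_at was higher. H358 and H1703 each had 16 lower (against 47.5% and 53.7%), with 5 past 1 unit in H358 (20.8% against 8.74%) and 2 in H1703 (8.33% against 3.47%). A549 and H460 had 9 lower (37.5% against 52.5% and 48.7%), and A549 had 0 past 1 unit, against 6.39%. With 1 array per line and culture these counts describe the arrays, and probe sets of the same gene are not independent.

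The genes most like each member in level over the 16 arrays were named by Pearson's r for the member's probe set that differed most between lines, as a description over 8 lines in 2 cultures. For TGFB1 203085_s_at these were LRFN3 (0.97), APOBEC3C (0.96) and EMP3 (0.96), and for TGFB2 209909_s_at DOCK5 (0.94), PROCR (0.92) and TGFB1I1 (0.91). For TGFBR2 208944_at they were CIB1 (0.94), ROR1 (0.91) and BAG3 (0.91), for SMAD3 218284_at EFR3A (0.92), ZNHIT1 (0.88) and PRAF2 (0.88), and for SMAD7 ZNF609 (0.93), COL18A1 (0.91) and PTK2 (0.91). SKIL 206675_s_at was closest to CTDSPL (0.92), BAMBI to ZDHHC13 (0.93), TGFB3 to NIPAL2 (0.91), SKI 229265_at to PBX2 (0.92) and TGFBR1 206943_at to PNN (0.86). Among 45 pairs of the members themselves, those named here were chosen after their values were seen: line means of SMAD7 followed those of SMAD3 (r = 0.73), and TGFBR2 followed SMAD3 (0.67) and SMAD7 (0.66), over 8 lines that share the same arrays. TGFB1 and TGFB3 ran against each other (r = -0.87, Spearman's rho = -0.76), with H1437 at the far end of both.

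Other genes of the pathway were taken from 4 lists and read against the share of 7.11% called over all probe sets. Among further receptors and SMADs, 4 probe sets rose and 2 fell of 44 tested (14 of 16 genes), with a median of 0.01. SMAD4, the partner that all receptor-activated SMADs share, rose by 0.65 ± 0.32 on 235725_at in 8 of 8 lines (adjusted p = 0.0175), but its other probe sets gave 0.37, -0.09 and -0.22, none called. The activin receptor ACVR1B rose by 0.49 ± 0.31 on 213198_at, with its 4 others between -0.20 and 0.05. ACVR2B (0.50) and SMAD5 (0.32) were the other two that rose. SMAD2, the close relative of SMAD3, fell by 0.37 (SD 0.24) on 203076_s_at, with -0.35 on 203077_s_at and values from -0.50 to 0.05 on the rest. The BMP receptor BMPR2 fell by 0.32 (SD 0.17), with its others between -0.14 and 0.04.

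Of 50 probe sets for latency, activation and turnover (18 of 22 genes) 1 rose and 2 fell, with a median of -0.07. NEDD4L, a ubiquitin ligase that acts on SMADs, rose by 0.88 ± 0.43 on 241396_at in 8 of 8 lines (adjusted p = 0.0140), with 0.52 on 226974_at (adjusted p = 0.0707) and -0.16, 0.11 and 0.04 on the rest. TGIF1, a SMAD co-repressor, fell by 0.91 (SD 0.54) on 1566901_at and stood at -0.03 and -0.14 elsewhere. SMURF2, a ubiquitin ligase for SMADs and receptors, fell by 0.88 (SD 0.64) on 230820_at, with -0.29, -0.26 and 0.27 elsewhere. FKBP1A, which binds TGFBR1, had -0.47 ± 0.46 on its most changed probe set (adjusted p = 0.0817). As with SKI and SKIL, 1 probe set of each of these called genes passed and the others did not.

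Of 49 probe sets for target genes (24 of 28 genes) 1 rose and 0 fell (limma, 9 with an unadjusted p under 0.05), with a median of 0.11 against -0.01 over all probe sets. That median was 0.95 in A549 alone and between -0.07 and 0.19 in the other lines, and it was 0.02 over the 7 lines without A549, a comparison added after the values were seen. In A549 the median of the 6 epithelial marker probe sets was 1.94, and its part in that value was not tested. VEGFA, an angiogenic growth factor, rose by 0.55 ± 0.34 on 210512_s_at (adjusted p = 0.0273), with 0.28 to 0.35 on its others. ANGPTL4, a secreted inhibitor of lipoprotein lipase, had 1.56 ± 1.46 and the actin-binding TAGLN 0.62 ± 0.55, neither called (adjusted p = 0.0539 and 0.0581), and KLF10 had 0.39 ± 0.50. Of 17 probe sets for other ligands and antagonists of the superfamily 0 were called (limma, 4 with an unadjusted p under 0.05), with a median of -0.12 and 4 genes of lowest p, the activin antagonist FST (0.65 ± 0.46), GDF11 (-0.30 ± 0.25), BMP7 (-0.22 ± 0.18) and BMP2 (-0.90 ± 1.16), at adjusted p from 0.0602 to 0.132.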

How the data were processed

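The deposited values are log2 ratios per probe set. From the values, 63.5% of probe sets have a median ratio of 1 over the 16 arrays (within 0.001 on the log2 scale). The rest have another median and were left out as dim, and 62 controls were left out too. A probe set called dim can still be high in some lines, as ESRP1 225846_at was in H358 (8.68). Per the labels' protocols the input was 200 ng of RNA per array. No source used here names the software, probe summary, normalisation or build. Symbols came from the platform annotation, updated through the RefSeq table. The number of arrays limits the precision, since arrays have no read depth.

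Cultures were compared with limma 3.58.1 in R 4.3.3 (lmFit, eBayes with trend), with the line, named in the labels, as a block, and lines with the F test of the same fit. Arrays of 1 line correlated at 0.756 to 0.920, and arrays of different lines at 0.298 or less. Replicate numbers follow deposition order and pair nothing. In simulated data on 34669 probe sets, 44% of 1.5-fold and 76% of 2-fold culture differences were recovered. Named genes were all members, up to 4 genes per pathway list with the smallest p, and the 3 genes most like each member. Members and lists were chosen with earlier results of these data known. Alternatives changed the probe sets tested, the unit, normalisation, variance model, covariates, block and lines.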

Additional observations from a re-analysis of the deposited data

Results flagged for a closer look

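In 72 sets of 8 values (24 probe sets, each in 2D, in 3D and as differences), 5 held a value set apart from the other 7 by more of the whole range than Dixon's critical value allows, where chance marks about 1 in 20 sets. TGFB1 203085_s_at stood at -6.29 in 2D and -6.59 in 3D in H1437, with the other lines between -1.59 and 1.37 in 2D and between -2.11 and 1.10 in 3D. TGFB3 209747_at stood at -1.16 in A549 in 2D, with the others from -0.10 to 0.77. SKI 204270_at stood at -1.03 in H1437 in 3D, with the others from -0.31 to 0.09, and SKI 213755_s_at at -0.28 in H358 in 3D, with the others from -0.03 to 0.07.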

How the results depend on the processing

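Over all tested probe sets the count called between cultures was 1091 with dim probe sets included, 1406 with s_at and x_at identifiers dropped, 860 genes with 1 mean per gene, 849 genes with the highest mean probe set per gene, 2 with the 18S level as a covariate and 8 with no replicate block, and 554 to 2591 on leaving out 1 line (554 without H358, 647 without H460, 736 without H23 or without H1703, 1086 without H661 and 1212 without A549). With the 18S level 3565 probe sets had an unadjusted p under 0.05, and without the block 1458. The member probe sets called between cultures were 0 with dim probe sets included, with the 18S level (limma, 3 with an unadjusted p under 0.05) and without the block (limma, 2), and 0 to 4 on leaving out 1 line, with 0 without H23, H358 or H661 and 1 without A549, H460 or H1703. Values that changed sign were SKI, at -0.082 as a gene mean and -0.77 on the probe set with its highest mean, and, with the 18S level, TGFBR1 236561_at (0.14), SMAD3 205397_x_at (0.29) and BAMBI (0.38). The highest mean is one of ratios to each probe set's own reference, so it does not pick the most abundant probe set. On leaving out 1 line TGFBR1 206943_at ranged from -0.19 to 0.026, 224793_s_at from -0.055 to 0.27 and 236561_at from -0.33 to 0.11, SMAD3 205397_x_at from -0.29 to 0.033, SKIL 225227_at from -0.098 to 0.080 and BAMBI from -0.30 to 0.11. Between lines the counts were 16543 probe sets and 11 member probe sets with s_at and x_at dropped, where fewer were tested, 11741 genes as means and 10813 by the highest mean probe set, with 25087 to 25753 and 18 to 20 without 1 line. Leaving out 1 line says nothing about the pairs of probe sets, since 7 lines hardly allow a pair to pass. The 18S difference lay between -1.31 and -0.82 without 1 line.

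Further receptors and SMADs called higher were 2 with dim probe sets and with quantile normalisation and 0 as gene means and with the 18S level, and 1 to 3 without 1 line; those called lower were 0 with dim probe sets, as gene means and with the 18S level, 1 with s_at and x_at dropped and with quantile normalisation, and 0 to 1 without 1 line. Latency, activation and turnover genes called lower were 1 with dim probe sets and 0 as gene means and with the 18S level, where 0 were also called higher, with 0 to 2 lower and 1 to 2 higher without 1 line. Target genes called higher were 0 with s_at and x_at dropped, as gene means, with quantile normalisation and with the 18S level, and 0 to 1 without 1 line. Other ligands and antagonists called higher were 0 to 1 without 1 line. The cause of these changes was not tested. The pairing of arrays in the replicate block is that of the cell lines.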
